A study of Mus musculus with 9 samples.

Results

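The genes for the proteins of the cytosolic ribosome were taken as every protein-coding row of the expression table whose mouse GENCODE symbol begins with Rpl or Rps and a digit, or is Rpsa, Rplp0, Rplp1, Rplp2 or Fau, with the Rps6k kinases left out. This gave 91 genes of the 13708 in the table. Of these, 78 are canonical ribosomal protein genes, 46 of the large and 32 of the small subunit, and 13 are paralogs, retrogene copies or other genes that the symbol rule also takes. All 91 passed the filter on low values, a minimum of 10 normalized counts reached by 4 or more of the samples. Between Mrc1Cre Xpr1fl/fl and Xpr1fl/fl fetal liver macrophages these genes differed little. Rpl21, Rpl36a, Rpl13a, Rps15 and Fau fell, Rps19 rose, and the other 85 did not pass the test (limma, adjusted p under 0.05), whereas 43.1% of all 13594 genes tested did. No member differed by more than 0.5 on the log2 scale, against 26.5% of all genes tested. At an unadjusted p under 0.05 there were 11 members, 9 of them lower, where 51.2% of all genes tested lay under it.

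Each cytosolic ribosome is built from a large and a small subunit, and most ribosomal proteins occur in it as a single copy, so the cell makes them in near equal amounts. Many of their mRNAs begin with a C followed by a tract of pyrimidines, the terminal oligopyrimidine or TOP motif, through which mTOR and LARP1 adjust their translation and their storage. In the fetal liver, macrophages sit at the centre of islands of maturing red cells, a lineage known to be sensitive to the loss of single ribosomal proteins such as Rps19.

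RNA was sequenced from CD45+ F4/80hi CD11blow macrophages sorted from livers of embryos at E15.5, 5 samples of Mrc1Cre Xpr1fl/fl and 4 of Xpr1fl/fl, and the comparison asks what loss of the phosphate exporter gene Xpr1 changes in differentiated macrophages. All 9 samples carry floxed Xpr1 alleles on a C57BL/6 background, and the first group also carries a Cre that was inserted in the Mrc1 locus and is active in liver sinusoidal endothelial cells too. Nothing in the sources used here says whether a sample is a single embryo or a pool, so p-values measure the spread between these samples, which may be technical. Library preparation selected polyadenylated RNA and kept the strand.

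Xpr1 itself held 1173, 1187, 1074, 1285 and 1091 normalized counts in Mrc1Cre Xpr1fl/fl replicates 1 to 5, and 1781, 1860, 2239 and 2047 in Xpr1fl/fl replicates 1 to 4, a log2 difference of -0.77 ± 0.08 (SE, adjusted p = 4.13e-05, limma). Adgre1, the gene for F4/80, held between 42250 and 52419 normalized counts. Of 14 macrophage markers 1 was higher and 7 were lower, and their sum was 1.05% to 1.13% of normalized counts in Mrc1Cre Xpr1fl/fl samples against 1.15% to 1.36%. The 20 erythroid markers were all lower, at 0.392% to 1.17% against 1.62% to 2.47%. So were all 8 hepatocyte, 6 of 8 endothelial and 6 of 12 granulocyte and progenitor markers, while 2 of 8 monocyte markers were higher and 3 lower, and 1 of 16 cycling genes was higher and 5 lower. Of all genes tested 43.1% passed, 21.5% higher and 21.6% lower. The shares that passed were 57.1% of the macrophage, 50% of the granulocyte and progenitor, 62.5% of the monocyte and 37.5% of the cycling list. They were 75% of the endothelial list and 100% of the erythroid and hepatocyte lists. No marker of these lists was at 0 in any sample, and their part in the results was not tested. The column headers carry 3 dates: Mrc1Cre Xpr1fl/fl replicates 1 to 4 share the latest, Mrc1Cre Xpr1fl/fl replicate 5 and Xpr1fl/fl replicates 1 to 3 share the earliest, and Xpr1fl/fl replicate 4 has its own, and what the dates stand for is not stated. Normalized counts summed to between 26942921 and 28309443 per sample. Since the samples are bulk, fewer cells of a type and less RNA per cell cannot be told apart.

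Several members exist in near-identical copies, which bears on every value that follows, because reads from such copies can be shared out between rows. The coding sequences of the Rps27 family show both extremes and are printed for that reason. Rps27 (GRCm39 chr3:90119819-90120977, minus strand) encodes a zinc-binding protein of the small subunit, and Rps27rt (GRCm39 chr9:114811434-114811807, minus strand) has the same 255 coding bases without a difference. Rps27l (GRCm39 chr9:66853340-66856808, plus strand) differs from Rps27 at 61 of 255 coding bases, marked by capitals.
Rps27: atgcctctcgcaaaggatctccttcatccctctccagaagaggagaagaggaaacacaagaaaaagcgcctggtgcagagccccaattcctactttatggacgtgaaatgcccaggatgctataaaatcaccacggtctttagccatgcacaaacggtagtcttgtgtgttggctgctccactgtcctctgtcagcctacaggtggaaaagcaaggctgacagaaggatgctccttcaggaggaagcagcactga
Rps27l: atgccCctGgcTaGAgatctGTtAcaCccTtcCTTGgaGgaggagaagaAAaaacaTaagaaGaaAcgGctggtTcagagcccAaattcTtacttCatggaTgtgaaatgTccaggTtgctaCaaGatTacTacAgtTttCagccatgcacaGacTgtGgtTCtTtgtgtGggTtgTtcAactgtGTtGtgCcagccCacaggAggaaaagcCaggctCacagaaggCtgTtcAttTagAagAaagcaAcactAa
Every 31-base word of the Rps27 coding sequence also occurs in Rps27rt, and none of those of Rps27l occurs in Rps27. In the table, Rps27 had a mean of 547 normalized counts, the lowest of the canonical genes, and Rps27rt one of 5841.

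Rpl10 encodes a protein that joins the large subunit late in its maturation. All 31-base words of Rpl10-ps3 occur in Rpl10, and the means were 7006 normalized counts for Rpl10 and 17272 for Rpl10-ps3. Among the canonical genes, 74 of 78 shared over 50% of their 31-base coding words with a transcript of at least 1 other annotated gene. The 62 rows of ribosomal protein pseudogenes in the table held 0.166% to 0.205% of all normalized counts, where the 91 members held 3.45% to 4.24%.

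Measured as normalized counts per kilobase of coding sequence, the canonical genes lay close together. The median was 23088 per kilobase, and 68 of 78 genes were within 2-fold of it. The 5 genes below that range were Rpl5, Rpl10, Rpl10a, Rpl27 and Rps27, and the 5 above it were Rpl41, Rplp1, Rpsa, Rps2 and Rps29. Rpl41 stood highest at 212167 per kilobase with a coding sequence of 78 bases, and the untranslated part of the mRNA is not in the divisor. By normalized counts not divided by length, which favour long mRNAs, the 6 highest canonical genes were Rpsa, Rps2, Rplp0, Rpl4, Rpl3 and Rpl7a. Their means were 43151, 41312, 35288, 34786, 28581 and 22838 normalized counts. Together they held 19.7% of the members' sum. Rpsa, which encodes a small subunit protein also known as the laminin receptor, ranked 49th by mean normalized count among all genes of the table.

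Together the 91 genes made up 3.66%, 3.67%, 3.63%, 3.49% and 3.67% of all normalized counts in Mrc1Cre Xpr1fl/fl replicates 1 to 5. In Xpr1fl/fl replicates 1 to 4 they made up 4.24%, 4.07%, 3.73% and 3.45%. The Mrc1Cre Xpr1fl/fl samples lay close to each other, the controls were spread over a range that took all of them in, and replicate 4 of the controls was lowest of all samples. The means were 3.62% ± 0.0774 (SD, n = 5) and 3.87% ± 0.353 (SD, n = 4), so the difference of 0.25 percentage points was smaller than the SD of the controls. The ribosomal protein share of all normalized counts is a description over the members and was given no test. Without Xpr1fl/fl replicate 1 the difference was -0.127 percentage points (Mrc1Cre Xpr1fl/fl minus Xpr1fl/fl), and without Xpr1fl/fl replicate 4 it was -0.391. Within the earliest date, where 1 Mrc1Cre Xpr1fl/fl sample stands beside 3 controls, it was -0.345. The share of the mitochondrial chromosome was 2.26% to 3.71% in Mrc1Cre Xpr1fl/fl samples and 4.90%, 3.98%, 3.46% and 3.71% in the controls. Taken over all counts without that chromosome, the members' mean share was 3.72% ± 0.0857 (SD) against 4.04% ± 0.39 in the controls. It was 3.64% against 3.94% without globin genes, and 4.52% against 4.98% without those of the 100 highest genes that are not members. These shares were given no test, and the cause of the difference was not tested.

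Both subunits followed the same course. The large subunit genes held 2.00%, 2.01%, 1.98%, 1.91% and 2.02% of normalized counts in the Mrc1Cre Xpr1fl/fl samples and 2.31%, 2.24%, 2.05% and 1.90% in the controls. The small subunit genes held 1.52%, 1.53%, 1.52%, 1.45% and 1.52% against 1.79%, 1.69%, 1.55% and 1.43%. The ratio of the summed large subunit counts to the summed small subunit counts was therefore almost constant, at 1.32, 1.32, 1.31, 1.32 and 1.33 against 1.29, 1.33, 1.33 and 1.33. The mean ratio was 1.32 in both genotypes, with SDs of 0.00756 (n = 5) and 0.0195 (n = 4).

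**Figure D1:**
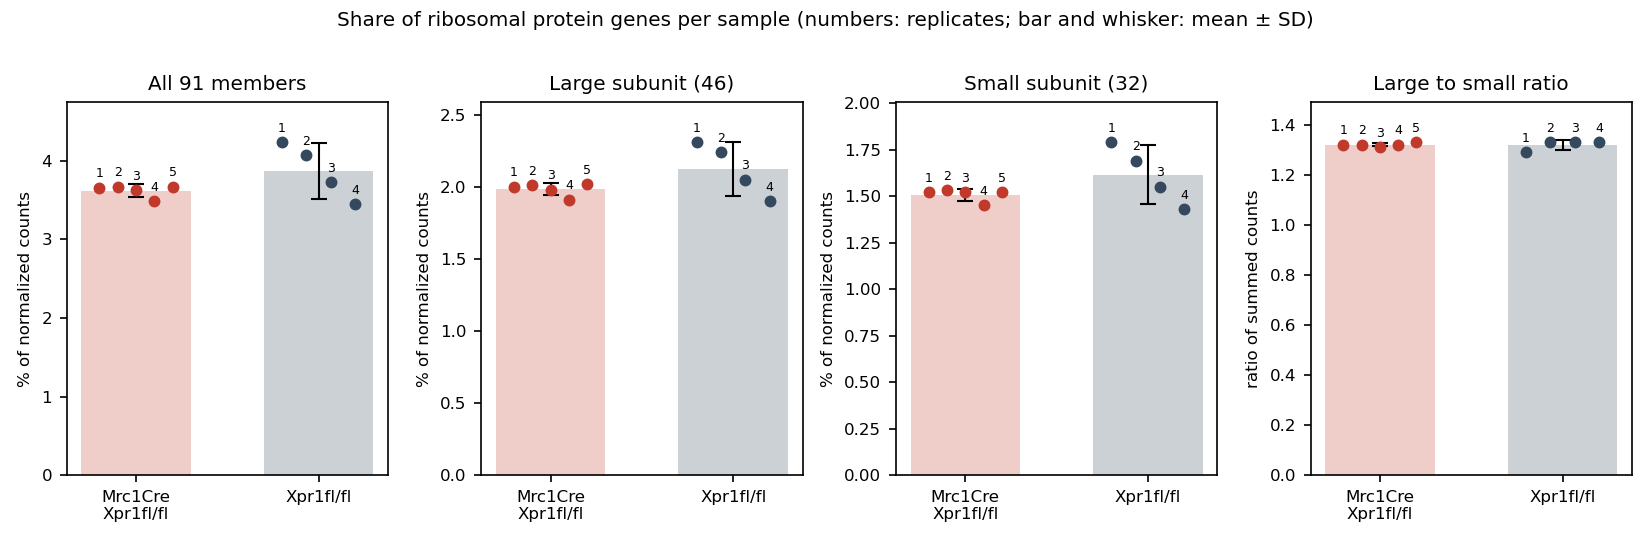
Share of normalized counts in percent (y axis, first 3 panels) held by all 91 members, the 46 large subunit genes and the 32 small subunit genes, and the large to small ratio (last panel), per sample. Points are samples numbered by replicate, bars are group means and whiskers the SD; the controls span 3.45% to 4.24% and the 5 Mrc1Cre Xpr1fl/fl samples 3.49% to 3.67%.

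The spread among the controls was carried by nearly all members at once. Xpr1fl/fl replicate 1 was the highest of the 9 samples for 69 of 78 canonical genes (88.5%), against 15% of all genes tested. Xpr1fl/fl replicate 4 was the lowest for 41 of them (52.6%), against 9.72% of all genes tested. The log2 difference between these controls, replicate 1 minus replicate 4, had a median of 0.34 over the canonical genes and ran from -0.23 to 0.58, while the median over all genes tested was -0.03. In 39 of 78 canonical genes (50%) all 5 Mrc1Cre Xpr1fl/fl values lay inside the range of the 4 controls, which was so for 7.72% of all genes tested. Control replicates 1 and 4 held 2.08% and 2.40% of normalized counts in erythroid markers, 0.118% and 0.229% in hepatocyte markers, 0.121% and 0.0375% in granulocyte and progenitor markers, and 4.90% and 3.71% on the mitochondrial chromosome. The part of these in the spread was not tested.

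**Figure D2:**
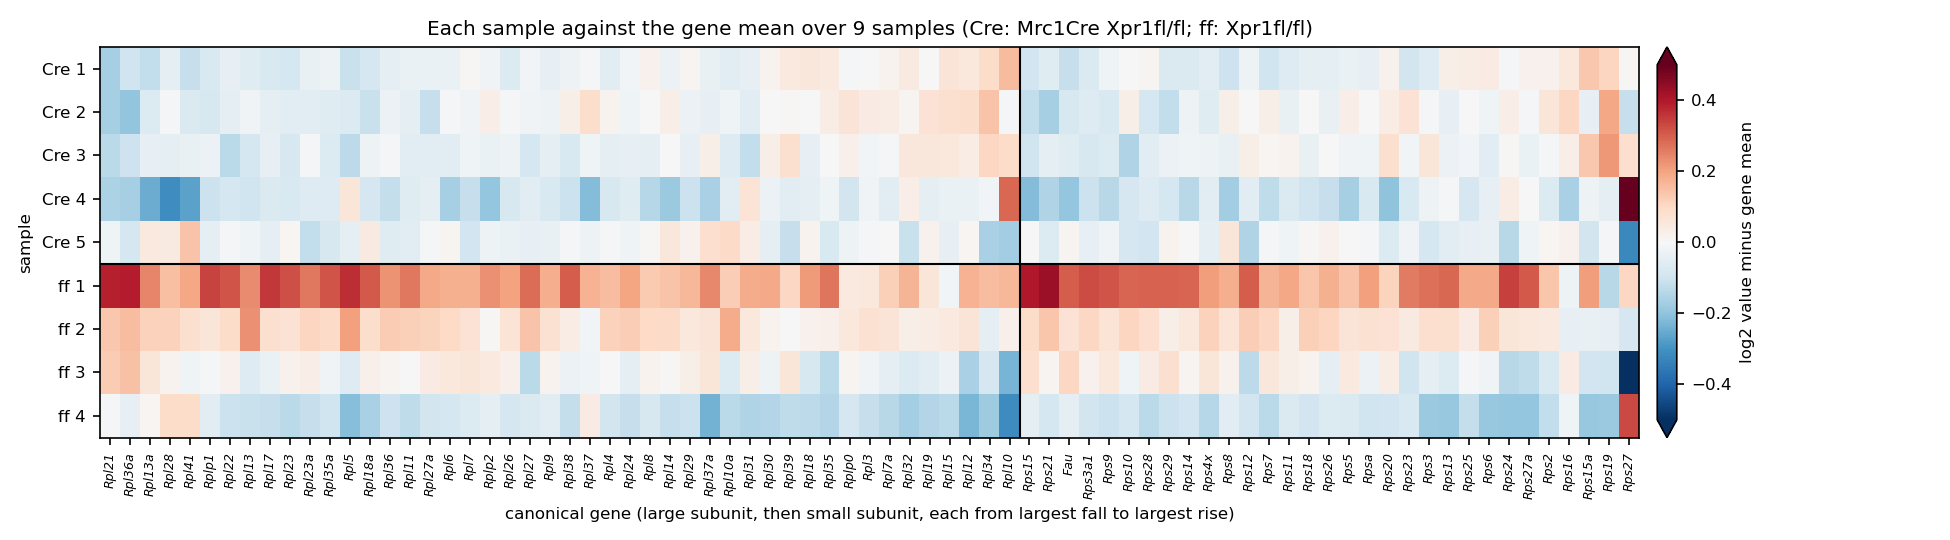
Log2 normalized count of 77 of the 78 canonical genes (x axis, large subunit left of the line, small subunit right of it, each ordered by its difference between genotypes) minus the mean of that gene over the 9 samples (rows). Cre marks Mrc1Cre Xpr1fl/fl and ff marks Xpr1fl/fl samples; red is above and blue below the gene mean, and the row of ff replicate 1 is red for nearly every gene, with medians of 0.20 for that row and -0.11 for ff replicate 4.

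Gene by gene, the log2 difference between the genotypes had a median of -0.09 over the large subunit and -0.08 over the small subunit, where the median of all genes tested was 0.00. It was negative for 38 of 46 large and 27 of 32 small subunit genes, but once trends with transcript length and GC content were taken out, it was negative for 37 of all 78 and their median became 0.01. The direction was kept under both other scalings, with a median of -0.16 over the canonical genes after scaling to the 75th percentile, where the median of all genes tested was -0.07, and one of -0.16 after quantile normalization, where that of all genes was 0.03. No large subunit gene rose and 3 fell, and 1 small subunit gene rose and 2 fell, against 21.5% higher and 21.6% lower among all genes tested. After scaling to the 75th percentile 24 of the 91 members fell and 0 rose in limma, and 43 were lower and 0 higher at an unadjusted p under 0.05, while over all genes 1999 were higher and 3706 lower (42% called). After quantile normalization 31 fell and 0 rose, with 49 lower and 0 higher at an unadjusted p under 0.05, while over all genes 2967 were higher and 2556 lower (40.6% called). The count of 5 that fell became 2 without Mrc1Cre Xpr1fl/fl replicate 1, 2, 3 or 4 or Xpr1fl/fl replicate 1 or 3, and 3 without Xpr1fl/fl replicate 2. There were 21 without Xpr1fl/fl replicate 4. The median over the canonical genes was -0.03 without Xpr1fl/fl replicate 1 and -0.13 without Xpr1fl/fl replicate 4. With the header date as a term, a fit in which Mrc1Cre Xpr1fl/fl replicate 5 is set against Xpr1fl/fl replicates 1 to 3, none passed (limma), 6 had an unadjusted p under 0.05, and 8.78% of all genes passed. The median over the canonical genes in that fit was -0.12, and 73 of 78 were negative.

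**Figure D3:**
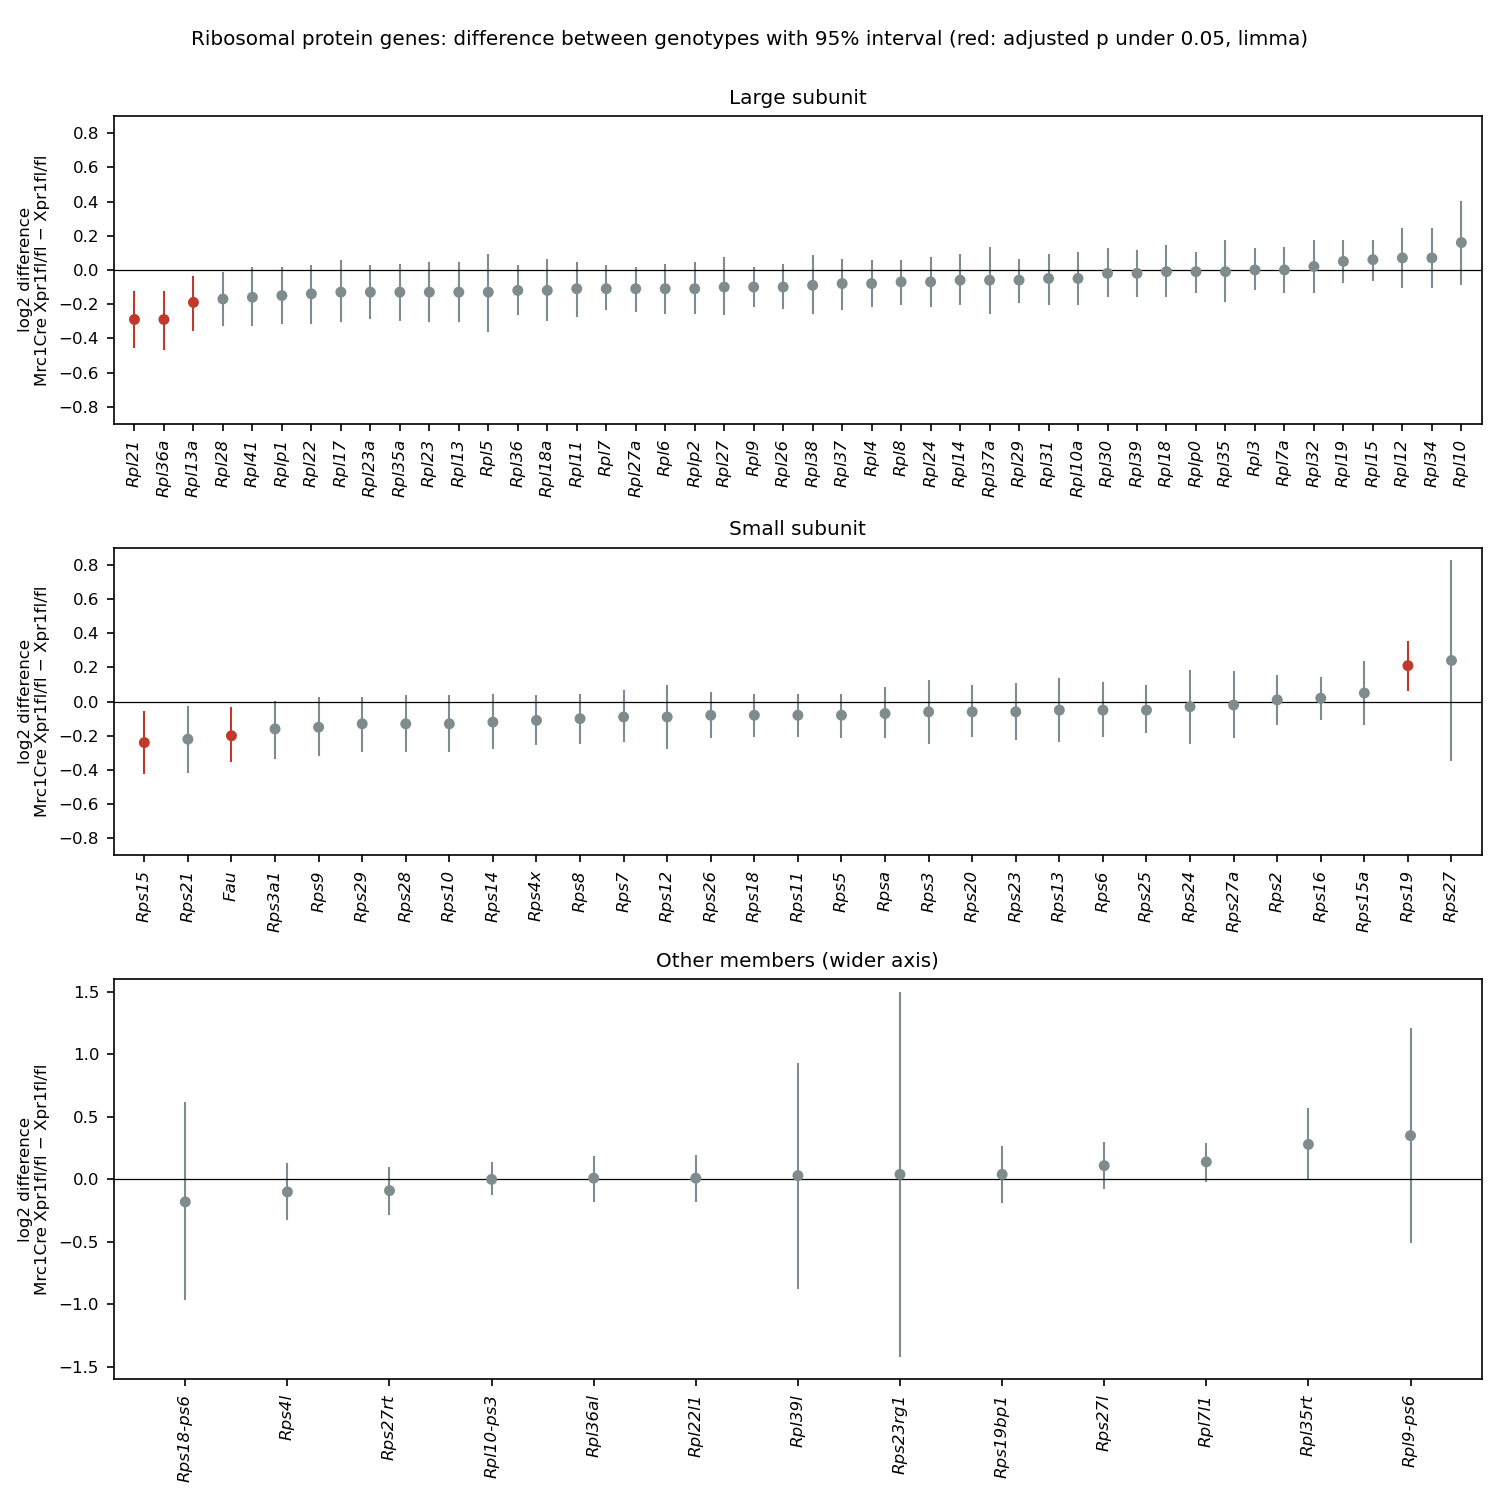
Log2 difference, Mrc1Cre Xpr1fl/fl minus Xpr1fl/fl (y axis), of 90 of the 91 members (x axis), with the 95% interval from limma as a line. Large subunit genes are in the top panel, small subunit genes in the middle and the 13 other members in the bottom panel, which has a wider axis; red marks the 6 genes with an adjusted p under 0.05, from -0.29 for Rpl21 and Rpl36a to 0.21 for Rps19.

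Rpl36a and Rpl21 were the members whose genotypes did not overlap, 2 of 91, where 34.1% of all genes tested were apart in this way. Rpl36a encodes a large subunit protein near the site where spent tRNA leaves the ribosome. It held 3894, 3642, 3882, 3716 and 3928 normalized counts in the Mrc1Cre Xpr1fl/fl samples and 5481, 4637, 4618 and 4055 in the controls. Every Mrc1Cre Xpr1fl/fl value lay below the lowest control, and control replicate 1 was highest. The log2 difference was -0.29 ± 0.07 (SE), with a 95% interval from -0.46 to -0.13 and an adjusted p of 0.00837 (limma).

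Rpl21, another large subunit gene, held 16118, 16124, 16476, 16204 and 17833 normalized counts in the Mrc1Cre Xpr1fl/fl samples. The controls held 23688, 19869, 19734 and 18025. The highest Mrc1Cre Xpr1fl/fl sample, replicate 5, lay just below the lowest control, replicate 4. The log2 difference was -0.29 ± 0.07 (SE, adjusted p = 0.00824, limma). All 31-base words of the Rpl21 coding sequence also occur in transcripts of other annotated genes, 121 in number, so reads can be shared out between rows. Both Rpl36a and Rpl21 kept their call under 21 of 22 alternatives, all but the date term, where their differences were -0.32 and -0.24. The minimum log2 difference of 0.5, under which no member passed, is not counted among these 22. Over the 22 alternatives their adjusted p ran from 0.00202 to 0.09 for Rpl36a and from 0.00272 to 0.187 for Rpl21.

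Rpl13a encodes a large subunit protein that is also known as part of a complex that represses mRNAs of inflammation in myeloid cells. It held 19061, 19819, 20206, 17466 and 21480 normalized counts against 24625, 22492, 21666 and 20917. Only Mrc1Cre Xpr1fl/fl replicate 5 reached into the range of the controls. It fell by 0.19 on the log2 scale (SE 0.07, adjusted p = 0.0398, limma), and the call was lost under 10 of 22 alternatives, with an adjusted p of up to 0.623.

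The next largest falls of the large subunit did not pass. Rpl28 differed by -0.17 (adjusted p = 0.0711), Rpl41 by -0.16 (0.124) and Rplp1 by -0.15 (0.113, limma). The largest positive differences among large subunit genes were those of Rpl10, Rpl34, Rpl12, Rpl15, Rpl19 and Rpl32, at 0.16, 0.07, 0.07, 0.06, 0.05 and 0.02 on the log2 scale, and none passed. For Rpl10, reads can be split with its copies: Rpl10 and 4 of them together held 24616 to 25794 normalized counts in the Mrc1Cre Xpr1fl/fl samples and 22049 to 26250 in the controls, a difference of 0.06 (adjusted p = 0.426, limma).

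In the small subunit, Rps15, whose protein lies on the head of the subunit close to the decoding centre, held 10078, 9877, 10045, 9263 and 10775 normalized counts in the Mrc1Cre Xpr1fl/fl samples. The controls held 14219, 11464, 11413 and 10448, so replicate 1 again stood highest and replicate 4 overlapped with Mrc1Cre Xpr1fl/fl replicate 5. Rps15 fell by 0.24 on the log2 scale (SE 0.08, adjusted p = 0.033, limma). Without control replicate 1 the fall was 0.15 (adjusted p = 0.0644), and over all 22 alternatives the adjusted p ran from 0.00576 to 0.357.

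Fau encodes a small subunit protein made as a fusion with a ubiquitin-like protein. It held 9576, 9811, 9951, 9054 and 10459 normalized counts against 12770, 10902, 11150 and 10044, and fell by 0.20 on the log2 scale (SE 0.07, adjusted p = 0.0397, limma). Here too Mrc1Cre Xpr1fl/fl replicate 5 and control replicate 4 overlapped. The fall was 0.02 once length and GC trends were taken out (adjusted p = 0.795), and adjusted p ran from 0.00628 to 0.795 over the alternatives. Rps21, Rps3a1 and Rps9 had differences of -0.22, -0.16 and -0.15, and none of these passed.

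Rps19 was the single member that rose. Its protein is needed for the maturation of the small subunit, and it is the gene most often mutated in the inherited red cell aplasia Diamond-Blackfan anemia. It held 10810, 11493, 11670, 9715 and 10017 normalized counts in the Mrc1Cre Xpr1fl/fl samples and 9127, 9772, 9376 and 8841 in the controls. Only Mrc1Cre Xpr1fl/fl replicate 4 fell below a control, replicate 2. The log2 difference was 0.21 ± 0.06 (SE, adjusted p = 0.0207, limma). It lost the call after both other scalings (0.13 and 0.12, adjusted p = 0.115 and 0.138), with the date term (0.09, 0.64) and in 3 of the 9 fits that left out a sample, and its adjusted p ran from 0.00249 to 0.64 over the alternatives.

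Rps27 had the largest positive difference of the small subunit, 0.24 ± 0.26 (SE, adjusted p = 0.49, limma), and the widest interval. It held 523, 481, 552, 959 and 417 normalized counts against 560, 491, 282 and 656, with Mrc1Cre Xpr1fl/fl replicate 4 highest and control replicate 3 lowest. Its identical copy Rps27rt was lowest of the Mrc1Cre Xpr1fl/fl samples in that replicate, with 5774, 5762, 5879, 5191 and 5684 normalized counts against 6928, 6098, 6283 and 4970. Summed, Rps27 and Rps27rt held 6297, 6243, 6432, 6151 and 6102 against 7488, 6590, 6565 and 5626, and Rps27 alone took between 4.30% and 15.6% of that sum. The sum differed by -0.07 ± 0.07 (SE, adjusted p = 0.477, limma). Rps15a, Rps16 and Rps2 had differences of 0.05, 0.02 and 0.01 and did not pass.

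By role, few groups held a gene that passed. Rpl5 and Rpl11, which with 5S RNA form the particle that binds Mdm2, differed by -0.13 and -0.11 and did not pass. Rplp0, Rplp1 and Rplp2, the proteins of the stalk where translation factors bind, differed by -0.01, -0.15 and -0.11. Rpl4, Rpl17 and Rpl39, which line the tunnel through which the new chain leaves, differed by -0.08, -0.13 and -0.02. Rps6, the substrate of S6 kinase, differed by -0.05 and Rps27a, fused to ubiquitin, by -0.02. Of 9 genes linked to Diamond-Blackfan anemia, Rps19 rose and the other 8 did not pass, among them Rpl35a and Rps10 with differences of -0.13 each and Rps24 with -0.03.

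At the median, the members had a smaller SE and a smaller within-group SD than all genes tested. Their median SE was 0.0712 on the log2 scale against 0.0994 over all genes tested, and their median within-group SD was 0.114 against 0.15. For 86 of 91 members the 95% interval of the difference lay wholly within a 1.5-fold change in either direction, as it did for 58% of all genes tested. The 5 exceptions were Rps27, Rps18-ps6, Rpl39l, Rps23rg1 and Rpl9-ps6, and all but Rps27 had means under 100 normalized counts. These shares depend on the size of the difference as well as on its SE. Of all genes tested 26.5% differed by more than 0.5 on the log2 scale, and no member did. A larger share of the members than of all genes tested had high normalized counts. Genes of similar level were not compared, so the part of level in the smaller SE and SD was not tested.

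Paralogs were compared with their parent genes as log2 ratios per sample, in 7 pairs. Rpl36al, on chromosome 12, encodes a protein of the same family as that of the X-linked Rpl36a. The first 150 coding bases of both genes are printed because this pair differed between genotypes. Capitals in Rpl36al (GRCm39 chr12:69228230-69231234, minus strand) mark 23 differences from Rpl36a (GRCm39 chrX:133486372-133488901, plus strand) in this stretch, of 39 in the 321 coding bases.
Rpl36a: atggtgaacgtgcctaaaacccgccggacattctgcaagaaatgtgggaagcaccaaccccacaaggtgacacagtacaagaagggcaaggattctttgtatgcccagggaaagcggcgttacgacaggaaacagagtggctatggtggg
Rpl36al: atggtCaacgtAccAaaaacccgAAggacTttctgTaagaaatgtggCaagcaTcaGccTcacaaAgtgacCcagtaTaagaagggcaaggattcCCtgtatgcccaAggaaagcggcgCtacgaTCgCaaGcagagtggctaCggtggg
No 31-base word of the Rpl36al coding sequence occurs in Rpl36a, although all of them occur in transcripts of 9 other annotated genes. Those of Rpl36a likewise all occur in transcripts of other annotated genes, 16 in number.

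Rpl36al itself held 4363, 4290, 4173, 4230 and 4416 normalized counts in the Mrc1Cre Xpr1fl/fl samples and 5224, 4260, 3956 and 3788 in the controls, a difference of 0.01 (95% interval -0.17 to 0.18). Its log2 ratio to Rpl36a was 0.16, 0.24, 0.10, 0.19 and 0.17 in the Mrc1Cre Xpr1fl/fl samples and -0.07, -0.12, -0.22 and -0.10 in the controls. All 5 values of the first group were above 0 and all 4 controls below it. The means were 0.17 ± 0.05 (SD, n = 5) and -0.13 ± 0.07 (SD, n = 4), a difference of 0.30 (two-sided exact permutation test, p = 0.00794, the smallest that 5 against 4 samples allow, and 0.0278 after adjustment over 7 pairs). Put as a share, Rpl36al ran at 113% of Rpl36a in Mrc1Cre Xpr1fl/fl macrophages and at 91.5% in the controls. Rpl36a was among the genes that fell and Rpl36al did not pass, and within the earliest date the difference in the ratio was 0.31.

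Rpl7l1 is a paralog of Rpl7, and its log2 ratio to Rpl7 was -2.61, -2.71, -2.60, -2.65 and -2.70 in the Mrc1Cre Xpr1fl/fl samples and -2.91, -2.82, -3.01 and -2.87 in the controls, so the groups were again apart. The difference was 0.25 (two-sided exact permutation test, p = 0.00794, adjusted p = 0.0278), or 15.9% of the parent against 13.4%, and 0.21 within the earliest date. Neither gene passed on its own: Rpl7l1 differed by 0.14 ± 0.07 (SE, adjusted p = 0.111, limma) and Rpl7 by -0.11 ± 0.06 (adjusted p = 0.145). Per kilobase of coding sequence Rpl7l1 had 3737 normalized counts and Rpl7 had 23136.

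Among single genes tested, 34.1% had genotypes that did not overlap. Ratios of other gene pairs were not computed, so the pairs that were apart have no background share of the same kind. The other 5 pairs did not pass. Rpl22l1, known to stand in for Rpl22, ran at 39.4% of Rpl22 in Mrc1Cre Xpr1fl/fl macrophages and 35.4% in the controls, a log2 difference of 0.15 (exact permutation test, adjusted p = 0.296). Rpl35rt, which differs from Rpl35 at a single coding base, ran at 19.1% and 15.6% (difference 0.29, adjusted p = 0.361, exact permutation test). Rpl39l, a paralog known from the male germ line, was at 0.797% and 0.774% of Rpl39, with 22.4 to 78.3 normalized counts in all samples (difference 0.04, adjusted p = 0.937, exact permutation test). Rps27l, which p53 is known to induce, held 1601, 1510, 1424, 1444 and 1300 normalized counts against 1464, 1470, 1185 and 1292, and its ratio to Rps27 differed by -0.13 (adjusted p = 0.806, exact permutation test). The ratios to Rps27 carry the uncertainty of that row, as does that of Rps27rt, which differed by -0.33 (adjusted p = 0.544, exact permutation test).

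**Figure D4:**
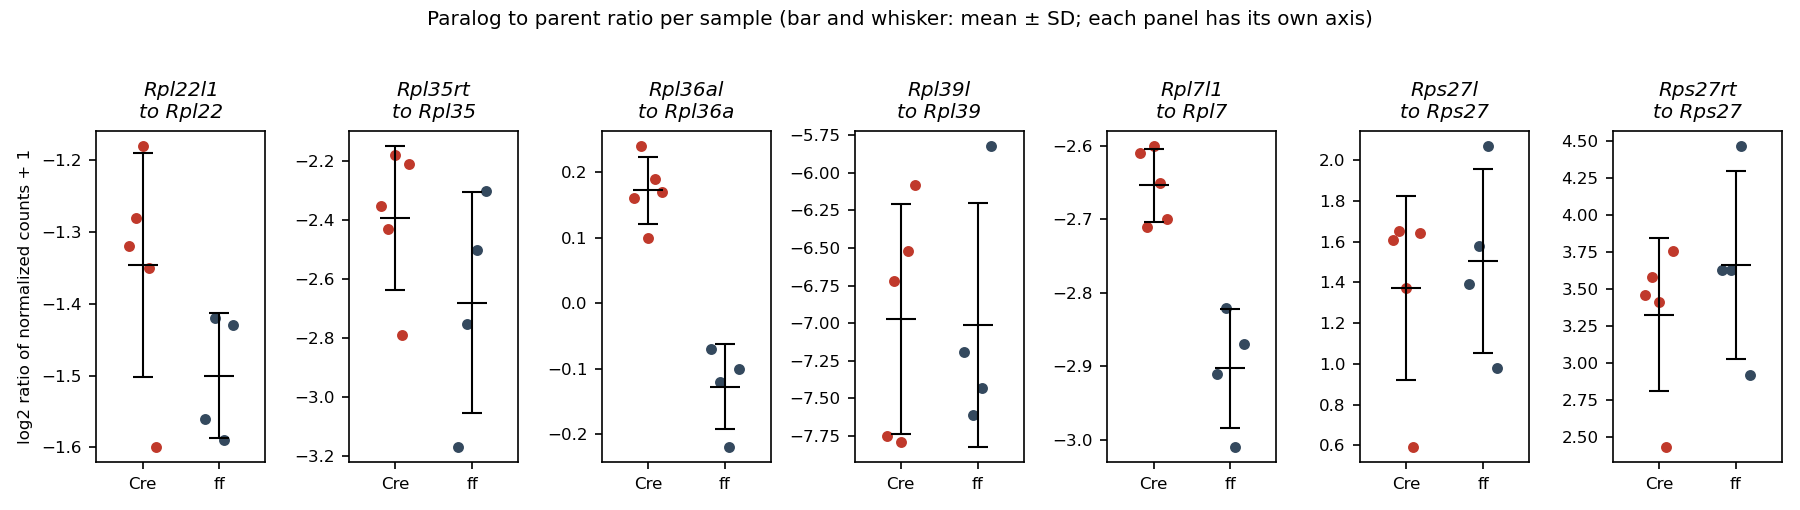
Log2 ratio of normalized counts of each paralog to its parent gene (y axis, its own scale in each panel) in 5 Mrc1Cre Xpr1fl/fl (Cre) and 4 Xpr1fl/fl (ff) samples. Points are samples and bars with whiskers the mean and SD; the groups are apart for Rpl36al to Rpl36a and Rpl7l1 to Rpl7 and overlap in the other 5 panels.

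Of the 13 members that are not canonical, 0 passed in limma and 1, Rpl35rt, had an unadjusted p under 0.05 (difference 0.28, adjusted p = 0.0912). It held 1532, 1438, 1664, 1076 and 1553 normalized counts in Mrc1Cre Xpr1fl/fl samples and 1010, 1146, 1216 and 1389 in controls, and only Mrc1Cre Xpr1fl/fl replicate 4 lay low. Their median difference was 0.03, and 10 of 13 were positive. Rps4l, a relative of the X-linked Rps4x, differed by -0.10, Rpl10-ps3 by 0.00 and Rps19bp1, which encodes a partner of Rps19 and no ribosomal protein, by 0.04. Rpl9-ps6, Rps18-ps6 and the retrogene Rps23rg1 were near the floor of the table, with means of 59.9, 27.1 and 14.8 normalized counts and intervals that reached past 1.5-fold in at least 1 direction.

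The start sites of 66 members are in the RefSeq promoter table (GRCm38.p6), and a TOP-like start, a C at the start followed by 4 bases that are each C or T, was read on the strand of the gene. It was found in 15 of 66 members (22.7%) and in 3.01% of the 27025 genes of that table. A run of at least 8 pyrimidines, from 20 bases before to 30 from the start, was found in 36 of 66 members (54.5%) and in 21.5% of those genes. These starts are annotated positions and were not checked against the reads of these samples. The windows of the genes that passed, all but Rpl21, are shown with 10 bases before and 20 from the start, and capitals mark runs of at least 5 pyrimidines.
Fau (chr19:6057937-6057966, plus strand): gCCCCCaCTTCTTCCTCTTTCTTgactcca
Rpl13a (chr7:45128726-45128755, minus strand): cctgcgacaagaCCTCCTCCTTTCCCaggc
Rpl36a (chrX:134585644-134585673, plus strand): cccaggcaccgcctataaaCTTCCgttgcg
Rps15 (chr10:80292421-80292450, plus strand): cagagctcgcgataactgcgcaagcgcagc
Rps19 (chr7:24884582-24884611, plus strand): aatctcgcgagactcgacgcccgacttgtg
Fau and Rpl13a have a long run at or next to the start, Rpl36a a short one further in, and Rps15 and the first of the 3 RefSeq starts of Rps19 none in this window. A run in the window is a description of these letters and not a test of TOP control.

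Assembly factors bring the ribosomal proteins and the ribosomal RNA together and leave the finished subunits. Of 39 small subunit assembly factors 15 rose and 0 fell, with a median of 0.17, and of 44 large subunit assembly factors 17 rose and 0 fell, with a median of 0.16. At an unadjusted p under 0.05, 1 of the small subunit list and 0 of the large subunit list were lower (limma). The shares that passed, 38.5% and 38.6%, were near the 43.1% of all genes tested, and all that passed were higher. The largest rises were those of Utp20 (0.56), Heatr1 (0.44), Wdr75 (0.38) and Rrp12 (0.35), factors of the early small subunit precursor, and of Mdn1 (0.71), Tma16 (0.43), Rrp1b (0.34) and Lsg1 (0.33) on the large subunit side. Utp20, for instance, held 2113, 2218, 1811, 2104 and 1883 normalized counts in the Mrc1Cre Xpr1fl/fl samples and 1349, 1364, 1231 and 1550 in the controls. Mdn1 held 2026, 1954, 2034, 1909 and 1211 against 1272, 858, 960 and 1398, so its genotypes overlapped, as did those of Rrp12. After scaling to the 75th percentile 8 and 11 factors rose, and 2 and 1 rose with the date term. Within the earliest date, Mrc1Cre Xpr1fl/fl replicate 5 lay above the mean of the 3 controls for 35 of 39 and 38 of 44 factors. The median log2 difference there was 0.21 in both lists, against 0.01 over all genes tested. These values rest on 1 Mrc1Cre Xpr1fl/fl sample. Of the small subunit list 9 rose without Mrc1Cre Xpr1fl/fl replicate 1 or 2 or Xpr1fl/fl replicate 3.

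RNA polymerase I transcribes the ribosomal RNA. Of 15 genes of this polymerase and its factors, 4 rose and 0 fell: Polr1a by 0.40, Rrn3 by 0.32, Taf1d by 0.27 and Taf1b by 0.23. The share that passed was 26.7%, against 43.1% of all genes tested, and a single gene of that list was lower at an unadjusted p under 0.05. With the date term 0 passed in limma and 4 were higher at an unadjusted p under 0.05, where the differences of these genes were 0.23, 0.31, 0.16 and 0.22, and 2 genes of the list fell after scaling to the 75th percentile and 2 after quantile normalization. Grwd1 and Heatr3 rose among 6 chaperones of ribosomal proteins, by 0.25 and 0.19, and the genotypes overlapped for Grwd1. The share of the chaperones that passed was 33.3%, against 43.1% of all genes tested. Of the chaperones 0 rose after scaling to the 75th percentile or without Xpr1fl/fl replicate 3, and 1 rose after quantile normalization.

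Among 25 other genes with TOP mRNAs, mainly translation factors, 2 rose, Vim by 0.25 and Eif3a by 0.23, and 1 fell, Eef1d by 0.15, with a median of 0.00. The share that passed was 12%, against 43.1% of all genes tested. In this list 2 rose and 6 fell after scaling to the 75th percentile. The counts were 3 and 7 after quantile normalization, and 5 and 1 without length and GC trends (limma). Among 20 regulators of TOP mRNAs, 5 rose and 3 fell, and the 40% that passed was near the share of all genes tested. Mtor, the kinase itself, held 2125, 2260, 2206, 2285 and 1615 normalized counts in the Mrc1Cre Xpr1fl/fl samples and 1209, 1466, 1432 and 1579 in the controls, a rise of 0.56. Rptor, its partner, rose by 0.41, Larp1, which binds the TOP motif, by 0.37, and Eif4ebp1, the translation repressor that mTOR inactivates, by 0.36. With the date term 0 of the 20 rose and 1 fell in limma, with 2 higher and 2 lower at an unadjusted p under 0.05. There the differences of Mtor, Rptor, Larp1 and Eif4ebp1 were 0.24, 0.25, 0.31 and 0.31. Mycn, Pdcd4 and Rps6kb2 fell by 1.25, 0.75 and 0.35, and Mycn was near the floor of the table with a mean of 23.4 normalized counts. Of 14 genes of ribosome stress 42.9% passed, again near the share of all genes. Eif2ak2, Ltn1, Mdm2 and Eif2ak4 were the largest of 5 rises (0.54, 0.39, 0.35 and 0.34), and Eif2ak1, the heme-regulated kinase, fell by 0.48. The genotypes overlapped for Eif2ak2 and Ltn1, where Mrc1Cre Xpr1fl/fl replicate 5 lay below the highest control.

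Beside the cytosolic set, 78 mitochondrial ribosomal protein genes had a median of 0.00 (8 rose, 5 fell, 16.7% passed), and 83 nuclear genes of the respiratory chain one of -0.11 (1 rose, 19 fell, 24.1% passed). Mrps27 rose by 0.41 and Mrps6 fell by 0.33, and Cox6b2 and Atp5if1 fell by 1.81 and 0.51. For the respiratory chain list, 0 rose and 43 fell after scaling to the 75th percentile, 0 and 38 after quantile normalization, 10 and 11 without length and GC trends, and 0 and 3 with the date term. For the mitochondrial ribosomal proteins the counts in these settings were 3 and 11, 7 and 6, 13 and 4, and 0 and 0 (limma). At an unadjusted p under 0.05 with the date term, 0 respiratory chain genes were higher and 7 lower, and 5 mitochondrial ribosomal protein genes were higher and 2 lower. After scaling to the 75th percentile and after quantile normalization, 0 and 1 respiratory chain genes were higher at that level. Over the 91 cytosolic members 6.59% passed. No test of the difference between these lists was made.

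**Figure D5:**
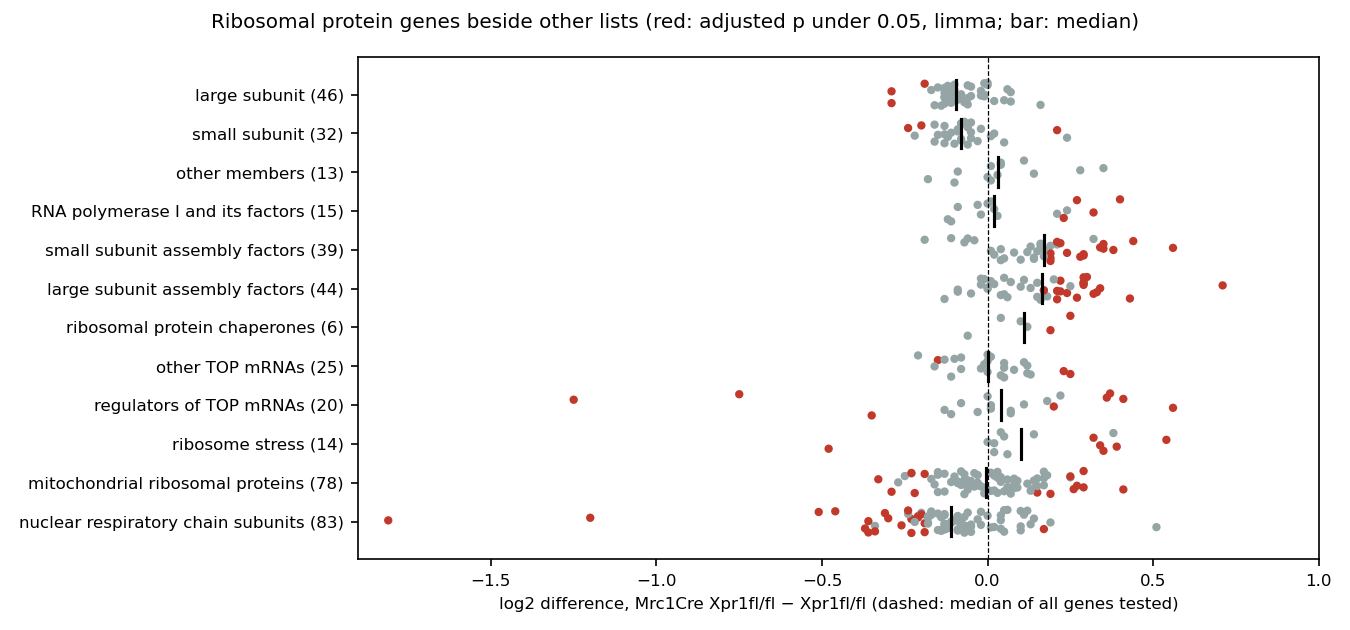
Log2 difference, Mrc1Cre Xpr1fl/fl minus Xpr1fl/fl (x axis), of each gene (point) in the large and small subunit, the 13 other members and 9 further lists (rows, number of genes in parentheses). Red points passed at an adjusted p under 0.05 in limma, black bars are medians and the dashed line is the median of all genes tested; both assembly factor lists have medians of 0.17 and 0.16 and both subunits have medians of -0.09 and -0.08.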

How the data were processed

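Libraries of polyadenylated RNA from 9 samples of sorted fetal liver macrophages were quantified with salmon against GRCm39 and imported with tximport by the authors. The deposited values are normalized counts, a signal per gene that the authors made by dividing counts by DESeq2 normalization factors. Between 4.07% and 14.3% of the values under 10 lay within 0.05 of a whole multiple of the smallest value of their sample, so whole reads were not recovered and no count model was used. The depth per sample is unknown, and no counting interval is given.

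Groups were taken from the sample labels. After a pseudocount of 1 and log2 transformation, genotypes were compared by lmFit and eBayes with a trend in limma 3.58.1 (R 4.3.3), over the 13594 genes with a normalized count of 10 or more in 4 or more samples, with Benjamini-Hochberg adjustment over all of them and a threshold of 0.05. Fold changes are on that scale, which understates the change of low genes. Symbols came from GENCODE for 13698 of 13708 genes. Paralog ratios were compared by two-sided exact permutation of the sample labels and adjusted over 7 pairs. Python 3.11.15, pandas 2.3.3, numpy 2.4.6, scipy 1.17.1 and matplotlib 3.10.9 were used, and the limma script was tested on simulated data.

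The members and lists were chosen with earlier results of these data known. Genes named are Xpr1, all members that are not canonical, the 6 canonical genes with the highest mean, the 6 largest rises and falls of each subunit, the role groups, and up to 4 rises and 4 falls of each other list among those that passed. Rpl7, the 5 genes below and the 5 above 2-fold of the median level per kilobase, and genes with an outlying sample were named after their values were seen. Alternatives were other pseudocounts, filters, scalings and limma options, a replicate block, the header date, removal of length and GC trends, a minimum log2 difference and leaving out each sample. Summing copies into the parent gene was chosen after seeing the data. The values of 1 member are not reported here by name or drawn gene by gene, and it stays in all counts. Start windows are from RefSeq (GRCm38.p6) and were not matched to GRCm39 coordinates.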

Additional observations from a re-analysis of the deposited data

Results flagged for a closer look

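In 192 groups of 4 or 5 samples, 9 values stood apart from the rest of their group (4.69%), where chance alone gives about 1 in 20 groups (5%). Replicate 4 of Mrc1Cre Xpr1fl/fl had the lowest share of ribosomal protein genes of its group, 3.49% against 3.63% to 3.67%, and the lowest small subunit share, 1.45% against 1.52% to 1.53%. In the same sample Rps27 was highest with 959 normalized counts (417 to 552 in the others), and its identical copy Rps27rt was lowest with 5191 (5684 to 5879). Replicate 5 of Mrc1Cre Xpr1fl/fl, which shares its header date with 3 controls, was highest for Rpl10a with 7535 normalized counts (6753 to 6947) and for Rpl21 with 17833 (16118 to 16476). It was lowest for Rpl32 with 11622 (12686 to 13069) and for Rps24 with 14767 (16213 to 16689). Replicate 1 of Xpr1fl/fl had the lowest large to small subunit ratio of its group, 1.29 against 1.33 in the other controls.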

How the results depend on the processing

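Another pseudocount, filter or robust fit left 1 member higher and 5 lower. Members higher and lower were 0 and 24 after scaling to the 75th percentile, 0 and 31 after quantile normalization, 1 and 2 without the trend, 2 and 5 with array weights, 0 and 0 with the date term (limma, 6 at an unadjusted p under 0.05), 4 and 3 without length and GC trends, and 0 and 0 with a log2 difference over 0.5 required. Leaving out single samples gave 0 to 2 higher and 2 to 21 lower. Rpl18 reversed from -0.01 to 0.14 without length and GC trends (adjusted p = 0.0439, limma). The cause of these changes was not tested.

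Small subunit assembly factors that rose numbered 8 after scaling to the 75th percentile, 2 with the date term, 1 with a difference over 0.5 required and 9 to 21 without single samples. Those that fell numbered 2 after 75th percentile scaling, 1 without length and GC trends and 0 to 1 without single samples. Large subunit assembly factors that rose numbered 11, 1 and 1 in those first 3 settings. Over the 9 lists together 59 rose and 29 fell, against 36 and 69 after 75th percentile scaling, 5 and 5 with the date term, 4 and 5 with a difference over 0.5 required, and 59 lower after quantile normalization.

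Same-numbered samples of the genotypes correlated at -0.0333, 0.147, -0.0113 and -0.0313 in their deviations, so the numbers do not pair them. A replicate block gave 1 member higher and 8 lower, 1 small subunit assembly factor lower and 44 lower over the 9 lists.

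Within the earliest date the log2 large to small ratio differed by 0.016, and the ratios of Rpl22l1, Rpl35rt and Rpl39l to their parents by -0.07, 0.60 and 1.33. Without single samples the Rpl36al difference was 0.27 to 0.32 and that of Rpl7l1 0.21 to 0.28. Even at the smallest p that 8 samples allow, these pairs on their own cannot reach the threshold over 7 pairs. Depth is unknown, which limits the genes near the floor.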
